A study of Mus musculus with 7 samples.

Results

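The genes described are 10 markers of primitive endoderm and of the basement membrane it lays down: the transcription factors Gata6, Gata4, Sox17 and Sox7, the receptor Pdgfra, the endocytic adaptor Dab2, the laminin chains Lama1 and Lamb1 and the collagen IV chains Col4a1 and Col4a2. They were taken by symbol from the 22556 genes of the count files, and each of the 10 was found in every sample. RNA bound to chromatin was sequenced (ChrRNA-seq), a fraction rich in nascent and intron-containing transcripts, from 2 lines of undifferentiated female mouse embryonic stem cells (mESCs). Both lines are hybrids of a 129S strain, of Mus musculus domesticus (Dom), and a castaneus strain (Cast), and come from the same F1 line. In iXist-ChrX-Dom (n = 4) Xist on the Dom X chromosome carries a doxycycline-inducible promoter in place of its own, and in iXist-ChrX-Cast (n = 3) the Cast copy of Xist does. All 7 samples were labelled as given 1 µg/mL doxycycline for 10 days, in serum and LIF. None was uninduced, so no effect of induction was measured here. The labels name 1 clone for each line, so a difference between the lines is also a difference between clones. Mitomycin C-inactivated mouse fibroblasts had served as feeders and were depleted by pre-plating, in which they attach preferentially. How many remained was not stated. The strain of these feeders was not given in the sources used here.

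In the blastocyst, the inner cell mass parts into epiblast, from which mESCs derive, and primitive endoderm. Fgf4 from the epiblast signals through Fgfr1 and Fgfr2 and the MAPK cascade to cells that keep Gata6, and these cells go on to express Pdgfra, Sox17, Gata4 and Sox7. Primitive endoderm and its parietal derivative secrete laminin and collagen IV, the networks on which a basement membrane is built. Cultures of mESCs in serum are known to hold some cells that express primitive endoderm genes.

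Counted fragments numbered 14877384 to 24309806 per sample, and 44.2% to 46.4% of them could be assigned to a parental genome. Fragments carried no molecular identifiers, so the Wilson intervals of shares and the floors cover counting error only. The intervals of log2 fold changes come from the fits and include the spread between samples. They use a normal approximation to the SE and are narrower than intervals from the F test itself would be. Nothing in the labels says that replicates were separate cultures, so p-values measure the spread between these samples, which may be technical. Replicates 1 and 2 stood apart from replicates 3 and 4 in iXist-ChrX-Dom, and from replicate 3 in iXist-ChrX-Cast. The deposited files follow different naming schemes in these 2 sets, and the labels state no batch. The description fields of iXist-ChrX-Dom replicates 3 and 4 read d1, against 10 days in their titles and treatment fields, which were followed. For iXist-ChrX-Cast replicates 1 and 2, the files bear another clone name than the labels and than the file of replicate 3, so that 1 clone for this line is not certain. The mESC label was set against its markers. Pou5f1, the core pluripotency factor, was counted in 798 to 2325 fragments per sample and Nanog in 965 to 1645. Of the 34 other primitive endoderm genes listed, 9 had under 10 fragments in every sample, while others were well counted, with 1314 to 3446 fragments for Lrp2, 895 to 2049 for Fgfr2, 702 to 2286 for Apoe and 246 to 611 for Cubn. Ttr, a product of visceral endoderm, was listed at 0 in all 7 samples, which at a floor of 3 fragments allows up to 0.123 to 0.202 CPM, and Afp was counted in 0 to 2 fragments. Hnf4a, a factor of visceral endoderm, was counted in 4 to 9.

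Of the 10 members, Pdgfra and Dab2 are those whose summed allelic fragments lean furthest to one parental genome. The bases before their starts are shown for that reason. They come from RefSeq (GRCm38.p6, the mm10 assembly), which is the C57BL/6J reference and not the sequence of either parental strain. Matches to the searched motifs are in capitals, and each run ends where the first annotated exon begins or 250 bases after it starts.
Pdgfra, chr5:75152001-75152250, plus strand: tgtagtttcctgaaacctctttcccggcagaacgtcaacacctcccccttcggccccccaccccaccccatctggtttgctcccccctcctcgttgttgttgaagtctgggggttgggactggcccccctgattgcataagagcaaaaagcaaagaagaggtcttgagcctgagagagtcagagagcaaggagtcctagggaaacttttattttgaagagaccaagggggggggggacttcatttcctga
Dab2, chr15:6299539-6299787, plus strand: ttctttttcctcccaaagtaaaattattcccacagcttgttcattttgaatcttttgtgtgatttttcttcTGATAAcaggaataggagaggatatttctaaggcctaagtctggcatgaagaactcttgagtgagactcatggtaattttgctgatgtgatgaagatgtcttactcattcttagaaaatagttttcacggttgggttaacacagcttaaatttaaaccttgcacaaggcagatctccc

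The motifs searched on both strands were AGATAA and TGATAA for GATA factors, ACAAAG and ACAAT for SOX factors, CCAAT and GGGCGG. Matches to ACAAT and CCAAT on opposite strands can overlap. The RefSeq promoter table, with 250 bases before each start and 50 after it, held 6 promoters of 5 of the 10 genes, those of Pdgfra, Dab2, Lamb1, Col4a1 and Col4a2. The upstream promoter of Dab2 held TGATAA, which 9.05% of all 32851 promoters hold, and AGATAA just inside the gene, which 11.2% hold. No member promoter held ACAAAG (18.7% of all) or ACAAT (31.0%), and the promoter of Pdgfra held none of the 6 motifs. CCAAT was found in 3 of the 6 promoters (37.4% of all) and GGGCGG in 3 (35.7%), each time those of Lamb1, Col4a1 and Col4a2. Col4a1 and Col4a2 lie head to head on chromosome 8, on opposite strands (minus strand 11198422 to 11312826 and plus strand 11312828 to 11449287, mm10) with 1 base between the annotated genes, so that their promoter windows overlap. The only GGGCGG of the Col4a1 window lies in this overlap and is also a match in the Col4a2 window. The other members lie on chromosomes 18 (Gata6), 14 (Gata4 and Sox7), 1 (Sox17), 5 (Pdgfra), 15 (Dab2), 17 (Lama1) and 12 (Lamb1).

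Levels were compared between genes as CPM per kb, counts scaled to a common library size by TMM (CPM) and divided by the length of the annotated gene, introns included. The laminin chains led, followed by the collagen IV chains, and the transcription factors were lowest. Lamb1, the β1 chain, had a mean of 2.60 CPM per kb over the 7 samples (2.31 to 2.97), above 83.8% to 87.3% of all genes of the files within each sample. Lama1, the α1 chain, had 1.84 (1.28 to 2.32). Col4a1 had 0.793 (0.442 to 1.25) and Col4a2 0.372 (0.215 to 0.563). The only neighbours in this order whose ranges over samples did not overlap were Lama1 and Col4a1.

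Dab2, an adaptor for clathrin-mediated endocytosis, and Pdgfra, the receptor for Pdgfa, both had a mean of 0.253 CPM per kb, with ranges of 0.171 to 0.337 and 0.164 to 0.330. Gata6, required for primitive endoderm, had 0.136 CPM per kb (0.0564 to 0.175). Sox7 had 0.103 (0.0379 to 0.181) and Gata4 0.0968 (0.0649 to 0.143), and Sox17 was the lowest at 0.0620 (0.0190 to 0.111). The 2 SOX genes rest on few fragments. Sox17, a factor of extraembryonic and definitive endoderm, was counted in 8, 3, 7 and 8 fragments in the 4 samples of iXist-ChrX-Dom, replicate 1 first, and in 6, 14 and 8 in the 3 of iXist-ChrX-Cast. It did not pass the expression filter and was not tested. Sox7, a SOX factor of extraembryonic endoderm, was counted in 22, 13, 5 and 16 fragments and in 7, 25 and 14. No difference in either gene smaller than this spread could be seen at this depth.

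**Figure D1:**
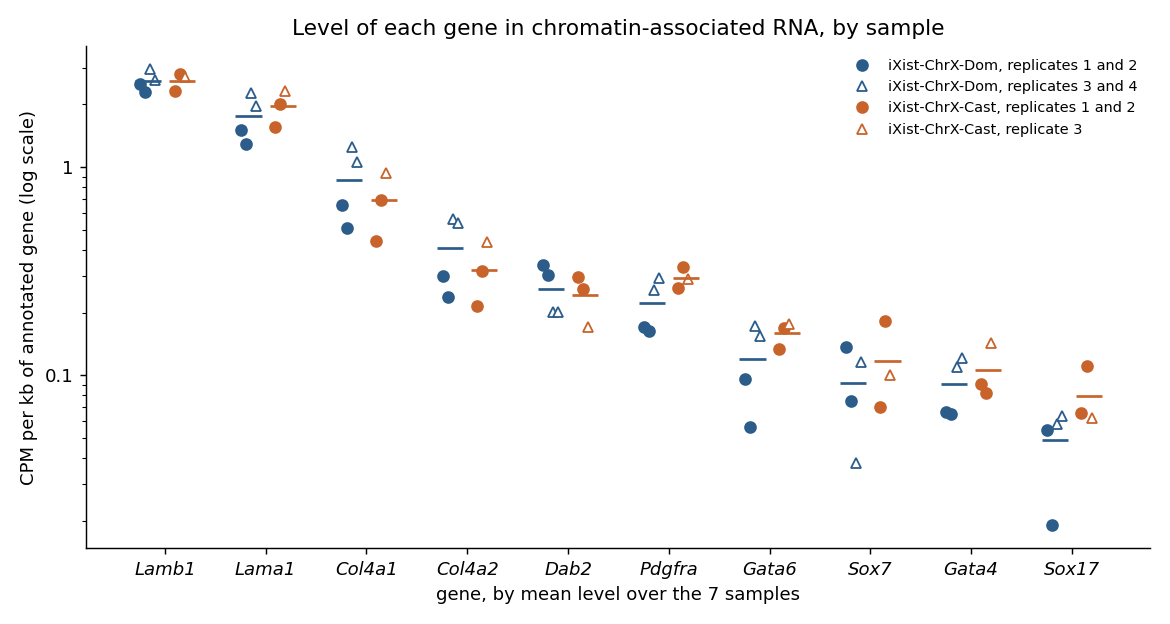
Level of each gene in CPM per kb of annotated gene (log axis) in each sample, in order of the mean over the 7 samples. Filled circles are replicates 1 and 2, open triangles replicates 3 and 4, and lines the mean of each line. Lamb1 leads with a mean of 2.60 and Sox17 is lowest with 0.0620.

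Chains that assemble together were compared within samples. The level of Col4a1 per kb was 1.98 to 2.22 times that of Col4a2 in the 7 samples (2.13 ± 0.108, SD, n = 4, in iXist-ChrX-Dom and 2.14 ± 0.0730, n = 3, in iXist-ChrX-Cast), while each gene alone varied 2.83-fold and 2.62-fold over the same samples. The level of Lama1 per kb was 0.557 to 0.858 times that of Lamb1. Lamc1, the γ1 chain that completes their laminin and is no member here, had 2.35 to 4.03 CPM per kb in iXist-ChrX-Dom against 4.64 to 5.54 for iXist-ChrX-Cast. Lama1 was thus 0.505 to 0.561 times Lamc1 in the former line and 0.318 to 0.499 times in the latter. Lamc1 itself did not pass the test between the lines (log2 fold change -0.62, edgeR adjusted p = 0.0794).

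The lines were then compared in total counts, with fold changes given for iXist-ChrX-Dom over iXist-ChrX-Cast. By edgeR's quasi-likelihood test with Benjamini-Hochberg adjustment over all 15186 genes tested, 0 of the 9 members tested passed the threshold of 0.05, against 2.92% of all genes (1.2% higher and 1.72% lower). None of the 9 had an unadjusted p under 0.05 (17.4% of all genes did), and DESeq2 called 0. The CPM of the lines overlapped for each of the 10 members, where 16% of all genes did not overlap. The median log2 fold change of the 9 was -0.16, against -0.0028 over all genes. In bulk RNA, fewer cells of a type and less RNA per cell cannot be told apart.

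Pdgfra came nearest to a difference. Its CPM was 7.81, 7.52, 11.8 and 13.5 in the 4 samples of iXist-ChrX-Dom, replicate 1 first, and 12.03, 15.1 and 13.3 in the 3 of iXist-ChrX-Cast. Replicates 1, 2 and 3 of iXist-ChrX-Dom were below every iXist-ChrX-Cast sample, and the lines overlapped through replicate 4 of iXist-ChrX-Dom. The log2 fold change was -0.41 (95% interval -0.85 to 0.02, edgeR adjusted p = 0.368), and the median of the tested genes on its chromosome 5 was -0.40. With the replicate number as a block, Pdgfra was the single member called (log2 fold change -0.60, adjusted p = 0.0155), as it was with the 2 replicate sets as a covariate (-0.52, adjusted p = 0.0353). Within replicates 1 and 2 alone, Pdgfra (-0.83, adjusted p = 0.0130) and Gata6 (-1.0, adjusted p = 0.0371) were both called. In these same fits the calls over all genes numbered 1794, 2398 and 1685, against 443 without the terms. Chromosome 5 medians in these fits are not given here, so these values of Pdgfra were not set against the shift of its chromosome.

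Col4a1 and Col4a2 had higher means in iXist-ChrX-Dom, by 0.32 (95% interval -0.29 to 0.94) and 0.34 (-0.28 to 0.96) on the log2 scale, with edgeR adjusted p = 0.660 and 0.638. The median over the tested genes of chromosome 8 was 0.35. Less that median, the differences were -0.02 and -0.0056. These values come from the fit without replicate terms. With the replicate sets as a covariate, the log2 fold changes were 0.139 for Col4a1 and 0.147 for Col4a2. Within replicates 1 and 2 alone they were 0.035 and 0.019. Chromosome 8 medians in those fits are not given here, so the nearness to the median is stated for the main fit only. For the other members, the log2 fold change was -0.43 for Gata6 (-1.08 to 0.23), -0.23 for Gata4 (-0.80 to 0.33), -0.37 for Sox7 (-1.26 to 0.53), 0.11 for Dab2 (-0.35 to 0.56), -0.16 for Lama1 (-0.54 to 0.23) and -0.0033 for Lamb1 (-0.23 to 0.22). Lamb1, the most evenly expressed member, had 167 ± 17.9 CPM (SD, n = 4) in iXist-ChrX-Dom and 167 ± 16.0 (n = 3) in iXist-ChrX-Cast. Its interval was the narrowest of the 9, and those of Gata6 and Sox7 reached below -1.

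**Figure D2:**
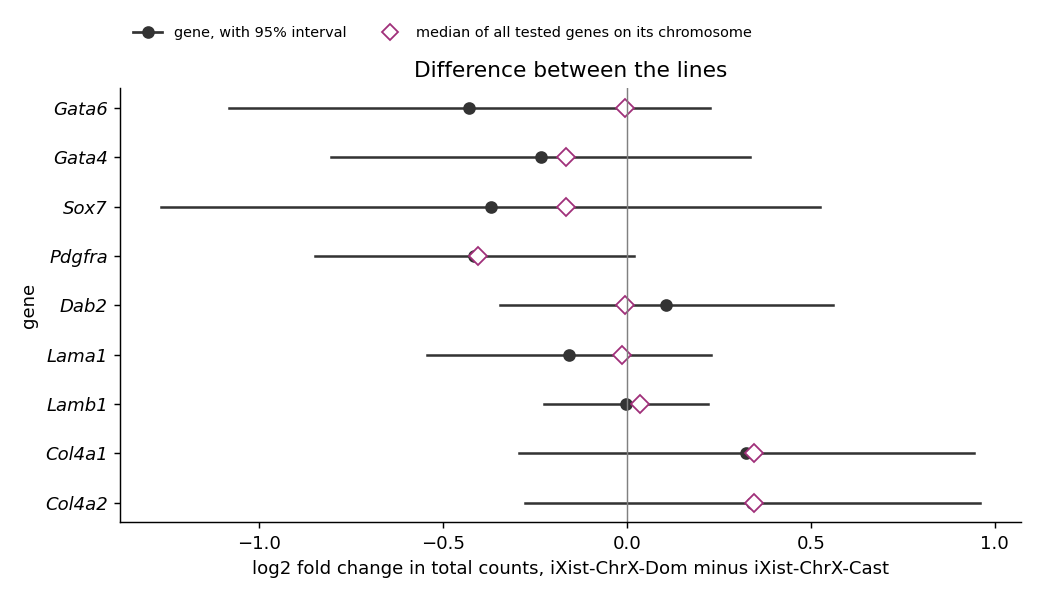
Log2 fold change in total counts between the lines for each tested gene, with its 95% interval (black, normal approximation). The fit had no replicate terms. Diamonds are the median of all tested genes on the chromosome of each gene. Pdgfra at -0.41 lies beside the chromosome 5 median of -0.40, and Col4a1 at 0.32 and Col4a2 at 0.34 beside the chromosome 8 median of 0.35.

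Each gene's fragments were next divided between the parental genomes, as the Cast share of its allelic fragments. The median Cast share over 12500 autosomal genes was 47.3% ± 0.178 (SD, n = 4) in iXist-ChrX-Dom and 47.4% ± 0.536 (n = 3) in iXist-ChrX-Cast. Of the members, 8 had enough allelic fragments to be tested (at least 10 in at least 6 of the 7 samples), and Sox17 and Sox7 did not, with 1 to 6 and 2 to 16 allelic fragments per sample. In a fit of both alleles over all samples, 6 of the 8 differed between the Cast and Dom allele by edgeR (adjusted p under 0.05), where 67.4% of all 12932 genes tested did. Pdgfra, Gata4 and Lamb1 had less from the Cast allele (43.2% of all genes), and Dab2, Lama1 and Col4a1 had more (24.1%). For Col4a1 the ratio turned in iXist-ChrX-Cast alone, where its log2 value was -0.11.

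Pdgfra was the member furthest from equal shares. Its Cast share was 13.3%, 9.62%, 24.0% and 11.02% in the 4 samples of iXist-ChrX-Dom, replicate 1 first, and 17.4%, 23.8% and 29.9% in the 3 of iXist-ChrX-Cast. The Dom allele thus led in all 7 samples, on 83 to 143 allelic fragments each, and the widest of the 95% Wilson intervals ran from 10.9% to 26.8%. Summed over samples, 640 fragments came from the Dom and 153 from the Cast allele, a share lower than in all but 2.45% of autosomal genes. The log2 ratio of Cast to Dom was -2.07 (SE 0.15, edgeR adjusted p = 3.28e-11).

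The median gene within 5 Mb of Pdgfra did not share this. The median Cast share of these genes was 47.3% for iXist-ChrX-Dom against 63.5% for iXist-ChrX-Cast. Kit, a receptor gene downstream of it at chr5:75574986-75656721, had 45.2% to 65.8% over the samples, and Chic2, upstream of it, had 45.6% to 62.4%. Lnx1, further upstream, had 29.8% to 51.4%. Pdgfra is also transcribed in fibroblasts, the feeder cell type. The 22 fibroblast markers listed summed to 175 to 218 CPM for iXist-ChrX-Dom against 176 to 191 for iXist-ChrX-Cast, and their summed Cast share was 23.2% to 33.3%. The markers differed widely among themselves. Over all samples Col1a2 had a Cast share of 9.19%, Col3a1 9.78% and Prrx1 11.4%. Col5a2, with the most allelic fragments of the list (4145), had 19.8%. Twist2 had 17.0%, Col6a1 20.2%, Dcn 24.4% and Col5a1 28.0%. Thy1, Col6a2, Col6a3 and Pdgfrb had 31.0% to 38.8%. Col1a1 had 46.0%, Mmp2 45.5%, Loxl1 40.7%, Tbx15 40.5% and Fbn1 40.3%. On 11 to 26 allelic fragments in all, S100a4, Fap and Postn had 0% to 15.4%. Lum and Fap had at most 4 and 3 fragments in any sample. The part of feeder RNA in the share of Pdgfra was not tested.

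Dab2 leaned the other way. Its Cast share was 65.6%, 63.6%, 66.6% and 62.3% in the 4 samples of iXist-ChrX-Dom, replicate 1 first, and 72.0%, 68.8% and 65.6% in the 3 of iXist-ChrX-Cast. All 7 samples were above 60%, and the lines overlapped. The log2 ratio of Cast to Dom was 1.00 (SE 0.067, edgeR adjusted p = 6.52e-12), and the pooled share of 66.1% exceeded that of 94.6% of autosomal genes. Genes within 5 Mb had a median of 48.1% and 46.5% in the lines. Of the neighbours with allelic counts, Ptger4 upstream of it had 48.0% to 80.9%, on 25 to 60 allelic fragments per sample, and its range reached above that of Dab2. Downstream, Rictor had 45.8% to 48.9%, Osmr 17.1% to 37.8% and Lifr 37.1% to 39.3%.

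Lama1 had a Cast share of 54.1% to 55.4% in iXist-ChrX-Dom against 54.3% to 57.1% for iXist-ChrX-Cast, against medians of 44.2% and 43.8% for the genes within 5 Mb. Its log2 ratio of Cast to Dom was 0.32 (SE 0.031, edgeR adjusted p = 4.26e-09), on 1857 to 3794 allelic fragments per sample. Lamb1 lay at 44.4% to 48.1% and 46.0% to 49.9%, close to its local medians of 47.7% and 47.6% (log2 ratio -0.17, SE 0.037, adjusted p = 0.000411). The genes of chromosome 12 as a whole had medians of 61.3% and 61.6%, so Lamb1 and its neighbours differ from the rest of their chromosome in this. Gata4 had 36.4% to 46.8% and 43.1% to 51.3% (log2 ratio -0.40, SE 0.15, adjusted p = 0.0245), and this call was lost without replicate 2 or 3 of either line, with adjusted p of 0.0524 to 0.0794. Gata6, on 22 to 60 allelic fragments per sample, had 31.4% to 60% and 29.1% to 51.7% and did not pass (adjusted p = 0.0848), but did without iXist-ChrX-Dom replicate 1 (0.0368) or iXist-ChrX-Cast replicate 3 (0.0112).

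**Figure D3:**
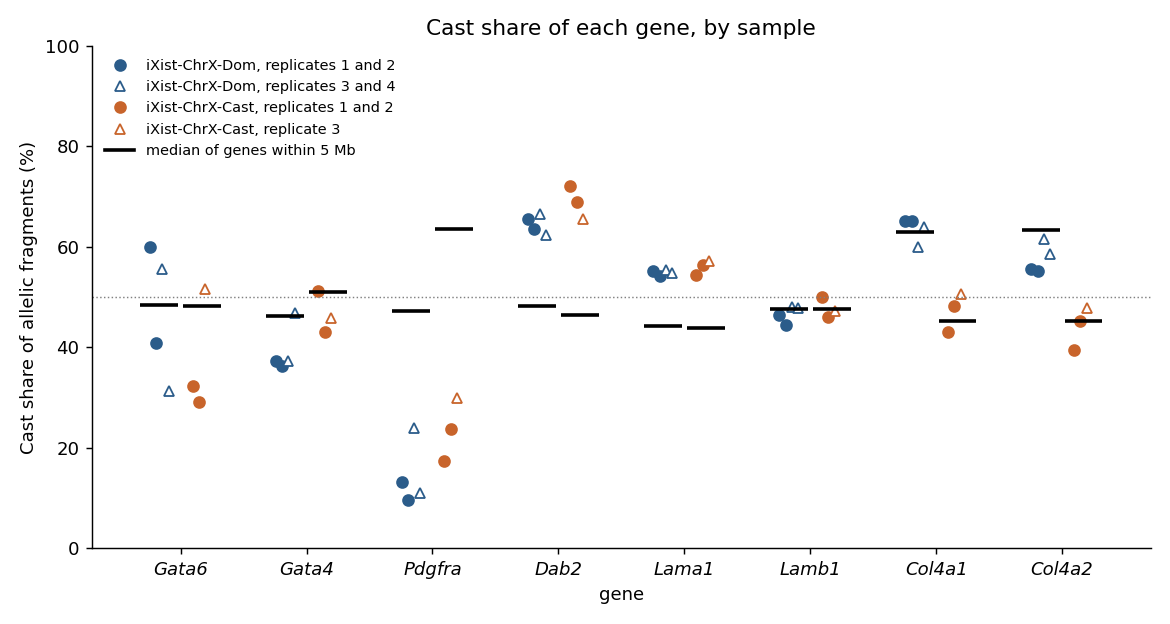
Cast share of allelic fragments in each sample for the 8 tested genes, with the median of genes within 5 Mb in each line as a black bar and 50% as a dotted line. Pdgfra lies at 9.62% to 29.9%, below the local median of its line in every sample, and Dab2 at 62.3% to 72.0%, above it. Col4a1 and Col4a2 follow the different local medians of the 2 lines.

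The Cast share was compared between the lines by the same test. Col4a1 and Col4a2 were called, 2 of the 8 members tested, where 17.4% of all genes were (9.63% with a higher Cast share in iXist-ChrX-Dom and 7.79% with a lower one). Col4a1 had a Cast share of 65.1%, 65.1%, 59.97% and 63.9% in the 4 samples of iXist-ChrX-Dom, replicate 1 first, and of 43.1%, 48.2% and 50.7% in the 3 of iXist-ChrX-Cast. Every iXist-ChrX-Dom sample was above every iXist-ChrX-Cast sample, and 23.1% of all genes were separated between the lines in either direction. The difference was 0.90 in log2 odds (SE 0.11, edgeR adjusted p = 5.98e-07). Col4a2 had 55.5%, 55.1%, 61.5% and 58.5% against 39.5%, 45.2% and 47.9%, again without overlap, a difference of 0.74 (SE 0.12, edgeR adjusted p = 5.06e-05).

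Chromosome 8 as a whole differed in the same way. Its 695 other genes tested had a median Cast share of 63.5% ± 0.308 (SD, n = 4) in iXist-ChrX-Dom and 46.7% ± 2.83 (n = 3) in iXist-ChrX-Cast, and a median difference of 0.97 in log2 odds. Less that median, the differences of Col4a1 and Col4a2 were -0.07 and -0.23. The Cast allele of Col4a1 was 1.77 times as high in iXist-ChrX-Dom as in iXist-ChrX-Cast (30.2 ± 10.1 and 17.1 ± 6.43 CPM) and its Dom allele 0.965 times (17.8 ± 7.64 and 18.4 ± 4.46 CPM). For Col4a2 these ratios were 1.59 and 0.933, and the medians over chromosome 8 genes were 1.73 and 0.890 Within replicates 1 and 2 alone, the Cast and Dom ratios were 1.54 and 0.709 for Col4a1 and 1.31 and 0.795 for Col4a2. The chromosome 8 medians in those samples were 1.86 and 0.890, above both alleles of both genes. Pdgfra differed by -0.88 in log2 odds (SE 0.33, edgeR adjusted p = 0.0705), where the median over chromosome 5 was -1.03. Leaving out iXist-ChrX-Dom replicate 3 or iXist-ChrX-Cast replicate 1 brought Pdgfra past the threshold, with adjusted p = 0.00405 and 0.0369 by edgeR. It was also called with each allele scaled to its own total (-0.95, adjusted p = 0.0451) and, by limma on the log odds, with the replicate sets as a covariate (-1.02, adjusted p = 0.0274), but not with the replicate number as a block (-0.79, adjusted p = 0.0787). Dab2 did not pass (-0.28, SE 0.14, adjusted p = 0.201), nor did Lama1, Lamb1, Gata4 or Gata6.

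**Figure D4:**
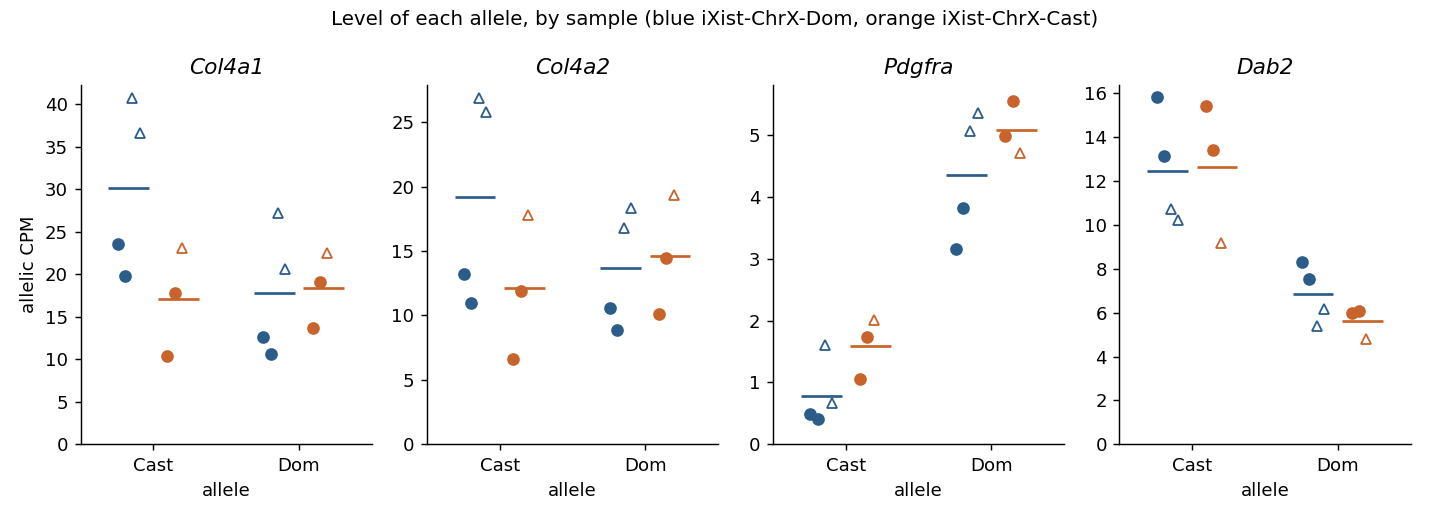
Level of the Cast and the Dom allele in allelic CPM in each sample, for 4 genes, with the mean of each line as a bar. Filled circles are replicates 1 and 2 and open triangles replicates 3 and 4. The Cast alleles of Col4a1 and Col4a2 are 1.77 and 1.59 times as high in iXist-ChrX-Dom. For Pdgfra the Dom allele exceeds its Cast allele in every sample.

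Since the 2 replicate sets stood apart, members were also compared between replicates 3 and 4 and replicates 1 and 2, with the line as a covariate. By edgeR, 6 of the 9 members tested differed, where 30.3% of all genes did. Of these, 5 were higher in replicates 3 and 4 (16.3% of all genes) and 1 was lower (14%). The same 6 were separated in the same direction within both lines, which 44.9% of all tested genes were. In iXist-ChrX-Cast this rests on replicate 3 alone, as that line has no replicate 4. The labels give no difference between these sets, and the naming of the files, the d1 in some descriptions, the clone name in the files of iXist-ChrX-Cast and any other difference between them cannot be told apart.

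The collagen IV chains moved most. Col4a1 had 75.3, 58.1, 143 and 121 CPM in the 4 samples of iXist-ChrX-Dom, replicate 1 first, and 50.6, 79.5 and 107 in the 3 of iXist-ChrX-Cast. Replicates 3 and 4 of iXist-ChrX-Dom, and replicate 3 of iXist-ChrX-Cast, were above replicates 1 and 2 of their line. The log2 difference was 0.88 (SE 0.13, edgeR adjusted p = 0.000259). Col4a2 had 41.0, 32.5, 76.8 and 73.1 CPM and 29.3, 43.1 and 59.3 CPM, a log2 difference of 0.90 (SE 0.12, edgeR adjusted p = 0.000128). Both alleles took part. The Cast and Dom alleles of Col4a1 were 1.78 and 2.06 times as high in replicates 3 and 4 of iXist-ChrX-Dom as in replicates 1 and 2, and 1.65 and 1.37 times as high in replicate 3 of iXist-ChrX-Cast. For Col4a2 the ratios were 2.18 and 1.80, and 1.93 and 1.58.

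Lama1 had 189, 161, 284 and 247 CPM and 195, 251 and 290 CPM, and rose by 0.51 (SE 0.10, edgeR adjusted p = 0.00185). Gata4, a zinc-finger activator of endoderm genes, had 3.07, 3.01, 5.07 and 5.61 CPM and 4.22, 3.82 and 6.61 CPM, and rose by 0.78 (SE 0.16, edgeR adjusted p = 0.00208). Gata6 had 3.16, 1.87, 5.71 and 5.10 CPM and 4.43, 5.56 and 5.81 CPM, and rose by 0.73 (SE 0.22, edgeR adjusted p = 0.0210). In iXist-ChrX-Cast its replicate 3 stood above replicate 2 by little, and the call was lost without iXist-ChrX-Dom replicate 2, 3 or 4, with adjusted p up to 0.0966.

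Dab2 was the member that fell. It had 47.4, 42.5, 28.5 and 28.3 CPM in the 4 samples of iXist-ChrX-Dom, replicate 1 first, and 41.8, 36.6 and 24.0 in the 3 of iXist-ChrX-Cast. Replicates 3 and 4 were thus 0.631 times replicates 1 and 2 in iXist-ChrX-Dom, and replicate 3 was 0.614 times in iXist-ChrX-Cast. The log2 difference was -0.68 (SE 0.095, edgeR adjusted p = 0.000139). Pdgfra (0.42, adjusted p = 0.0568), Lamb1 (0.16, adjusted p = 0.181) and Sox7 (-0.42, adjusted p = 0.475) did not pass, and Pdgfra was separated in iXist-ChrX-Dom, where it was 1.66 times as high in replicates 3 and 4, but not in iXist-ChrX-Cast. Pdgfra passed without iXist-ChrX-Cast replicate 2 (0.53, adjusted p = 0.0201) or without its replicate 3 (0.73, adjusted p = 0.00872).

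**Figure D5:**
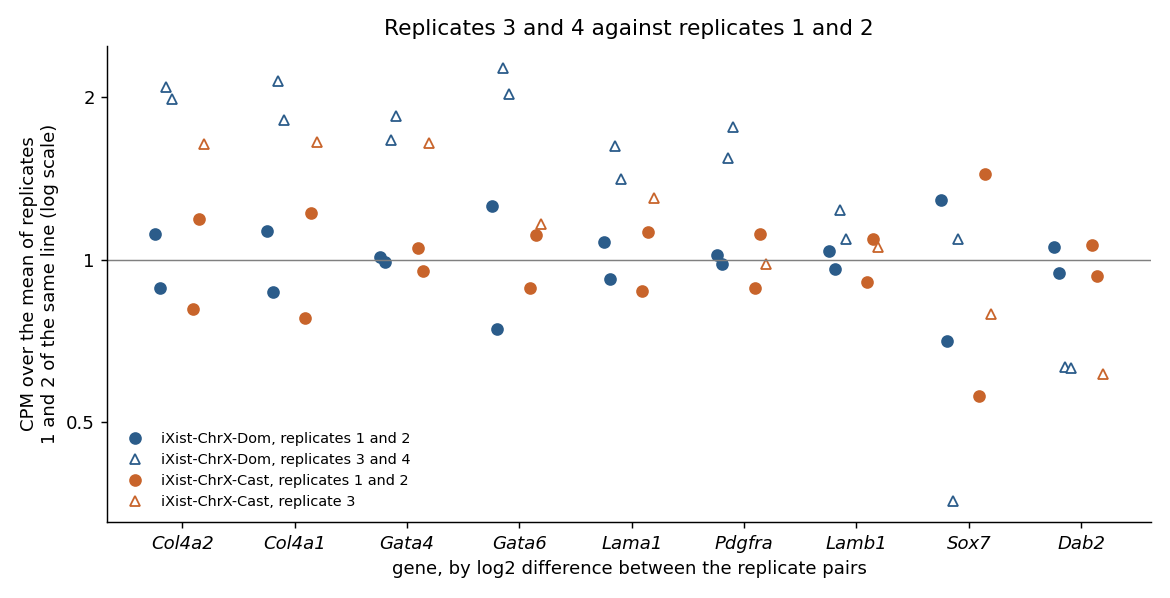
CPM of each tested gene in each sample over the mean of replicates 1 and 2 of the same line (log axis), in order of the log2 difference between the replicate sets. Replicates 3 and 4 (open triangles) lie above replicates 1 and 2 of their line for Col4a2, Col4a1, Gata4, Gata6 and Lama1 and below them for Dab2.

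Markers of other cell types in these sets are given beside this. Over all genes tested, 16.3% were higher in replicates 3 and 4 and 14% lower. Of 20 fibroblast markers tested, 4 were higher and 3 lower in replicates 3 and 4, with a median log2 difference of -0.02. Their summed level was 206 to 218 CPM in replicates 1 and 2 of iXist-ChrX-Dom and 175 to 202 in replicates 3 and 4, and 187 to 191 and 176 in iXist-ChrX-Cast. Col5a2, a fibrillar collagen chain, was lower (-0.68, edgeR adjusted p = 0.000136), and Col5a1 was higher (0.45, adjusted p = 0.00402). Of 9 trophoblast genes tested, 4 were higher, Tead4 with the smallest p (0.72, adjusted p = 0.000264), followed by Krt7, Plac1 and Tfap2c, while Cdx2, a defining factor, had at most 6 fragments in any sample. Of 4 definitive endoderm and mesoderm genes tested, 0 passed by edgeR or DESeq2 in either comparison, and 0 had an unadjusted p under 0.05. Of 19 pluripotency genes, 3 were higher, among them Pou5f1 (0.50, adjusted p = 0.00525) and Zfp42 (0.35, adjusted p = 0.00707), and 1, Nr0b1, was lower. The part of other cells in the differences of the members was not tested.

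The rest of the pathway was examined through lists, named here by their called genes of smallest p. Over all genes tested, edgeR called 2.92% between the lines. Between the replicate sets it called 30.3%, 16.3% higher in replicates 3 and 4 and 14% lower. Of the 34 other primitive endoderm genes, 23 could be tested. Between the lines 1 of them passed, Pdgfa, a ligand of Pdgfra (log2 fold change -0.65, SE 0.14, edgeR adjusted p = 0.0440). Its level was 22.7 ± 2.61 CPM (SD, n = 4) in iXist-ChrX-Dom and 35.5 ± 5.14 (n = 3) in iXist-ChrX-Cast. Pdgfa lies on chromosome 5, as Pdgfra does. Between the replicate sets 5 were higher and 0 lower by edgeR, 9 had an unadjusted p under 0.05, and DESeq2 called 3. Pth1r, a hormone receptor of parietal endoderm, rose by 1.24 on the log2 scale (adjusted p = 0.00117), Cubn, an endocytic receptor, by 0.81 (adjusted p = 0.00126), and Apoe by 0.77 (adjusted p = 0.00743). The median of the 23 was 0.17, against 0.51 for the 9 members and 0.0088 over all genes. Of 14 parietal endoderm genes tested, 0 passed between the lines by edgeR (2 at an unadjusted p under 0.05, and 1 by DESeq2), and 4 were higher in replicates 3 and 4, with Sparc at 0.75 (adjusted p = 0.000940). That list shares Lama1, Lamb1 and Sox7 with the members.

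Of 12 other laminin and collagen IV chains tested, 2 were higher in replicates 3 and 4 than in replicates 1 and 2 by edgeR, Lama5 (0.59, adjusted p = 0.000641) and Lamb2 (0.52, adjusted p = 0.00667), and 4 were lower, with Lama2 (-0.82, adjusted p = 0.00160) and Col4a6 (-0.96, adjusted p = 0.00679) first. The chains of this family thus went both ways, as did all genes tested (16.3% higher and 14% lower). Between the lines, 2.92% of all genes were called. Of 24 other basement membrane components and receptors, 1 differed between the lines, Smoc1, a secreted calcium-binding protein (81.2 ± 7.04 and 24.8 ± 4.27 CPM, log2 fold change 1.71, adjusted p = 0.000663). Between the replicate sets 8 were higher and 2 lower. Hspg2, or perlecan (0.73, adjusted p = 9.47e-05), and Col18a1 (0.60, adjusted p = 0.000177) were higher, and Frem1 (-1.14, adjusted p = 0.000177) and Fras1 (-0.87, adjusted p = 0.000232) lower. Of 20 genes of collagen folding and crosslinking tested, 0 differed between the lines by edgeR (1 at an unadjusted p under 0.05, and 0 by DESeq2). Between the replicate sets 7 were higher, with the lysyl hydroxylase Plod3 at 0.66 (adjusted p = 0.00109), and 2 were lower, the lysyl oxidase Lox (-1.60, adjusted p = 0.000233) and the prolyl hydroxylase Leprel1 (-0.85, adjusted p = 0.000310).

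The signalling genes of the pathway were all measured. Their counts stand beside 2.92% of all genes called between the lines. Between the replicate sets, 16.3% of all genes were higher and 14% lower. Of 30 genes of FGF and MAPK signalling, 2 were higher and 1 lower in iXist-ChrX-Dom: the receptor Fgfr1 (0.67, edgeR adjusted p = 0.0216), which lies on chromosome 8, the adaptor Grb2 (0.72, adjusted p = 0.0440) and the feedback inhibitor Spry2 (-0.56, adjusted p = 0.0416). Fgf4 had 50.1 ± 6.25 CPM (SD, n = 4) and 58.0 ± 7.11 (n = 3) and did not pass (adjusted p = 0.432). Between the replicate sets 6 were higher, led by the inhibitor Spry4 (0.92, adjusted p = 1.27e-05) and the receptor Fgfr3 (1.28, adjusted p = 5.85e-05), and 4 were lower, led by the inhibitor Spred1 (-0.62, adjusted p = 0.000203). Of 5 PDGF pathway genes, Pdgfa was the single one called between the lines, and between the sets it was higher (0.29, adjusted p = 0.0348) and Pdgfc lower (-0.52, adjusted p = 0.0206), while DESeq2 called 0 of the 5 between the sets. Of 19 pluripotency genes, 2 were lower in iXist-ChrX-Dom, Tbx3 (-1.06, adjusted p = 0.00316; chromosome 5) and Tdgf1 (-0.52, adjusted p = 0.0365), and of 20 fibroblast and 9 trophoblast genes, 0 differed between the lines by edgeR, with 2 in each list at an unadjusted p under 0.05 and, by DESeq2, 0 fibroblast genes and 1 trophoblast gene called. Over all lists other than the members, 8 genes passed between the lines, 19 by DESeq2 and 35 with the replicate number as a block, and the number ranged from 3 to 22 when a sample was left out, with 22 without iXist-ChrX-Cast replicate 3.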

How the data were processed

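Ribosomal RNA reads were taken out by the authors with Bowtie2 2.3.2, and the rest aligned with STAR 2.4.2a to mm10 with strain polymorphisms masked and split by parental genome with SNPsplit. The deposited files hold counts of fragments per gene, introns included, in total and by allele, made with featureCounts 1.5.2 per the file headers. The deposited ratio tables hold a fraction per X-linked gene and served only to check which allelic column is which. Counts were tested by the two-sided quasi-likelihood test of edgeR 4.0.16 (R 4.3.3) after its filterByExpr filter and TMM scaling, adjusted by Benjamini-Hochberg and read at 0.05. Cast share was tested as the interaction of allele and line, in genes with at least 10 allelic fragments in at least 6 samples. limma 3.58.1 and DESeq2 1.42.0 gave alternatives, and figures were made with matplotlib. Simulated data had a common dispersion for total counts and no replicate sets, so their rates do not carry over to these samples. The test between the lines found 99.0% of the genes tested among 200 changed by a log2 of 1.5. It tested 15137 genes, and 5.42% of its calls were false. The Cast share test found 68.5% of 200 genes changed by 1.5 in log2 odds, among 12932, with 7.43% of calls false.

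Same-numbered samples of the lines deviated together (correlations 0.360, 0.314 and 0.513), and so did differently numbered samples of the same replicate set (0.358 to 0.553). Same-numbered samples were thus no closer than others of their set. The correlations show the 2 sets. With at most 2 samples of a line in each set, they cannot exclude a pairing by replicate number within a set. No source states such a pairing. All 10 members were named, and of each other list at most 4 called genes of smallest p and the defining genes at or near 0, apart from some genes whose results are not reported here. The members and lists were chosen with earlier results of these data known. Columns of other series numbered 0. Sequences came from RefSeq.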

Additional observations from a re-analysis of the deposited data

Results flagged for a closer look

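In iXist-ChrX-Dom, the Cast share of Gata4 was 46.8% in replicate 4 and 36.4% to 37.3% in the other 3 samples. This sample stood apart by Dixon's ratio (0.911), on 62 allelic fragments with a 95% Wilson interval of 34.9% to 59.0%. Chance alone marks about 1 in 20 such groups.

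The Cast against Dom difference of Col4a1 was larger in iXist-ChrX-Dom than in iXist-ChrX-Cast by 0.90 in log2 odds, and that of Col4a2 by 0.74, by the edgeR test of the difference itself. The median difference over chromosome 8 was 0.97.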

How the results depend on the processing

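The count of members called between the lines in total counts was 0 and stayed 0 under DESeq2, RLE size factors, scaling by autosomes outside chromosomes 1, 5, 8, 12 and 14, library size alone, both other expression filters and when any sample was left out. It was 1 with the replicate block, 1 with the replicate sets as a covariate and 2 within replicates 1 and 2. Among the listed genes other than the members, 8 were called, 19 by DESeq2, 35 with the replicate block, 40 with the covariate, 33 within replicates 1 and 2, and 3 to 22 when a sample was left out. The replicate block changed no call in Cast share between the lines, where Pdgfra was called with the replicate sets as a covariate and with each allele's own total, and where Col4a1 and Col4a2 were called under every alternative run. The cause of these moves was not tested.

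Log2 fold changes between the lines turned sign as follows. Leaving out a sample gave -0.091 to 0.28 for Dab2, -0.075 to 0.050 for Lamb1, -0.63 to 0.096 for Sox7 and -0.41 to 0.053 for Gata4. Lamb1 was 0.017 by library size alone and 0.0057 without an expression filter. Less the chromosome median, Col4a1 was -0.022 and Col4a2 -0.0056. Less the median within 5 Mb, Pdgfra was 0.0090, Lamb1 0.0048, Col4a1 -0.058 and Col4a2 -0.041. For the Cast log-odds less the chromosome median, Pdgfra was 0.14, Col4a1 -0.073 and Col4a2 -0.23, since the subtraction removes what these genes share with their chromosome. In iXist-ChrX-Cast alone, the Cast against Dom log2 ratio was -0.11 for Col4a1 and -0.28 for Col4a2.

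Between the replicate sets, Col4a1, Col4a2, Dab2, Gata4 and Lama1 were called under each alternative. Depth kept Sox17 out of the test in total counts, and Sox17 and Sox7 out of the test in Cast share.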
